A study of Mus musculus with 6 samples.

Results

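The stem cell self-renewal factors described here are 10 genes taken by symbol from the 55421 genes of the count table. They are Erg, Etv6, Sox4, Mecom, Prdm16, Hlf, Hmga2, Msi2, Myb and Id1. RNA-seq had been performed on leukemia cells from mouse bone marrow driven by AML1-ETO9a (AE9a), a shortened AML1-ETO fusion protein that a retrovirus with a GFP marker brings into c-Kit+ stem and progenitor cells. In 1 group the donor cells carried an intact Ddit4 gene (AE9a-Ddit4+/+, 3 libraries), and in the other they came from Ddit4 knockout mice (AE9a-Ddit4-/-, 3 libraries). All mice had the C57BL/6 background, donors were young adults, recipients had been irradiated, and both groups shared the AE9a retrovirus. The wild-type C57BL/6 mice bought for the study were female. According to the labels, leukemia cells were kept in IMDM medium with serum, and which primary leukemia each library stems from is not given in the sources used here. Primary leukemias from knockout donors were fewer, in the transplantation the study describes, than the knockout libraries analysed here, so libraries of that group may share a primary leukemia. Thus n counts libraries, and p-values measure the spread between these libraries, which may be technical.

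Blood stem cells keep dividing without losing their stem cell state through a network of regulators that are switched down as cells mature. The ETS factor Erg, the PR-domain zinc finger proteins Mecom and Prdm16, the bZIP factor Hlf and Sox4 bind DNA and hold stem and early progenitor programs. Myb drives the expansion of progenitors, Etv6 is an ETS repressor needed in bone marrow stem cells, and Id1 blocks E proteins from binding DNA. Hmga2 is a chromatin protein of fetal stem cells and a classic target of let-7 microRNAs, and Msi2 binds RNA rather than DNA, so the group is called self-renewal factors below. Several of these genes act as oncogenes in acute myeloid leukemia, and Erg, Sox4 and Myb are also used outside the stem cell, by megakaryocytes, endothelium or early lymphocytes.

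Facts of the whole libraries bear on each result below. Library totals ran from 62141558 to 72717681 counts, with an exact two-sided permutation p of 0.5 between the groups (n = 3 each). The share of mitochondrial genes was 6.17% ± 1.52 in AE9a-Ddit4+/+ libraries and 13.3% ± 2.75 in AE9a-Ddit4-/- libraries (SD, n = 3 each), and the groups did not overlap (exact permutation p = 0.1, the smallest that 3 against 3 libraries allow). Counts are given as CPM, a count relative to the library total after TMM scaling, and 12 counts, the limit of detection used here, correspond to 0.163 to 0.198 CPM. The targeted gene, Ddit4, had 228, 161 and 342 CPM in AE9a-Ddit4+/+ and 84.9, 77.7 and 85.9 CPM in AE9a-Ddit4-/- libraries, which was -1.56 on the log2 scale (SE 0.28, adjusted p = 0.00635 in edgeR). The groups also differed in the sex of the cells, with the Y-linked gene Ddx3y at 88.2 to 125 CPM in AE9a-Ddit4-/- and below 0.1 CPM in AE9a-Ddit4+/+ libraries, so that genotype and sex of the cells cannot be told apart. Xist, which is made from the inactive X chromosome of female cells, was at 1032, 566 and 884 CPM with Ddit4 intact and still at 63.2, 20.3 and 129 CPM in the knockout libraries. Its level was thus lower but not absent beside the Y-linked RNA. The part of female cells, or of cells of the recipients, in the AE9a-Ddit4-/- libraries was not tested. Nor was their part in the Ddit4 RNA left there or in the markers of other cell types given below. In bulk RNA, fewer cells of a type and less RNA per cell cannot be told apart either.

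The regions just before the start sites of Erg, Sox4, Prdm16 and Hmga2 are printed first, because these 4 had the largest increases of the 10 factors. Each run is the 250 bases before the start given by RefSeq (GRCm38.p6), 5′ to 3′ on the gene's own minus strand. The window of Erg, at its most upstream start, is chr16:95586594-95586843, that of Sox4 chr13:28953700-28953949, that of Prdm16 chr4:154636874-154637123 and that of Hmga2 chr10:120476470-120476719. Capitals mark the ETS core GGAAG and the CCAAT box on either strand (CTTCC and ATTGG for the other strand), which did not overlap in these windows.
Erg: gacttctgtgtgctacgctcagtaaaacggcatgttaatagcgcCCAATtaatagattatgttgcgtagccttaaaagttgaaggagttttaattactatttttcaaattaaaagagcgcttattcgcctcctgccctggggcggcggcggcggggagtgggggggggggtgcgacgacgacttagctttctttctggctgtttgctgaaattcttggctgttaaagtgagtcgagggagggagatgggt
Sox4: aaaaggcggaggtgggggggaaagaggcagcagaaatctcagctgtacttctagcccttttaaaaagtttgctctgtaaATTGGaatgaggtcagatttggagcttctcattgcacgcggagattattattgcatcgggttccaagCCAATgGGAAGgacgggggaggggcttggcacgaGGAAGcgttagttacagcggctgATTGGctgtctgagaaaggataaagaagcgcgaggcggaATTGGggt
Prdm16: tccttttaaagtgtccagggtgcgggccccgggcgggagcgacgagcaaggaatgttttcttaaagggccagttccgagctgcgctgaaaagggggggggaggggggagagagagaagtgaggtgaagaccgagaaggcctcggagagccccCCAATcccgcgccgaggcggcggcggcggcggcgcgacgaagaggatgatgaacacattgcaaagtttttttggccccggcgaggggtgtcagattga
Hmga2: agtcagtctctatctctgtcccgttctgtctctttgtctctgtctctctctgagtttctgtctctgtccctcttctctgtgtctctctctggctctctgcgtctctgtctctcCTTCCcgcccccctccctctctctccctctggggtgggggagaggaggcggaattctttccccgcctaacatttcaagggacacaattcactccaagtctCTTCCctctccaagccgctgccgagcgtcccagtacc
The window of Sox4 held 4 CCAAT boxes and 2 ETS cores, that of Hmga2 held 2 ETS cores and no CCAAT box, and those of Erg and Prdm16 held 1 CCAAT box each and no ETS core. For Erg this covers the most upstream start only. Its windows 2 and 3, at starts further downstream and not printed, held 1 ETS core each, and window 3 also held 3 CCAAT boxes. These letters are common, since GGAAG or its complement occurred in 64.1% and CCAAT or its complement in 33.8% of the 32851 windows of the same length in the reference. GC content was 48.8% for Erg, 50.8% for Sox4, 56.4% for Hmga2 and 62.4% for Prdm16, against a median of 52.4% over all windows. Promoter windows were found for 9 of the 10 factors, Id1 being the one without. The RUNX core TGTGGT, the letters that the RUNX part of AE9a binds, or its complement ACCACA, was in none of the 14 windows of these 9 factors and in 14.05% of all windows. A match or its absence in 250 bases is a description of letters and does not show binding.

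The let-7 microRNAs are printed because Hmga2 and Lin28b, the let-7 inhibitor, both changed strongly, as given below. All 8 mature let-7 5p sequences in the RefSeq-based table shared the seed GAGGUAG (bases 2 to 8, in capitals), and 3 of them show how the remaining bases vary.
mmu-let-7a-5p: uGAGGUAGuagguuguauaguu
mmu-let-7b-5p: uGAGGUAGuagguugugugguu
mmu-let-7i-5p: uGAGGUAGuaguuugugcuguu
In the longest 3′ untranslated region of each protein-coding gene (GENCODE M21, GRCm38), the 7 bases complementary to this seed occurred at least once in 9.02% of 21007 genes. They occurred 4 times in Hmga2 and 4 times in Lin28b, and only 12 genes had 4 or more. The first match in each gene is shown, with the 7 bases in capitals, at chr10:120364224-120364246 for Hmga2 and chr10:45381022-45381044 for Lin28b, both on the minus strand.
Hmga2 site: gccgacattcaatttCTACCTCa
Lin28b site: acccgggcgggaagtCTACCTCa
Among the other self-renewal factors, Hlf had 1 such match and Erg, Sox4, Mecom, Prdm16, Msi2, Myb, Etv6 and Id1 had 0. Levels of the microRNAs themselves were not measured in these libraries.

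Of the 10 factors, 9 had enough counts to be tested, and 6 of these 9 rose in AE9a-Ddit4-/- cells past an adjusted p of 0.05 in edgeR's quasi-likelihood test. They were Erg, Hmga2, Sox4, Prdm16, Id1 and Myb. Over all 18375 genes tested, 19.4% rose past the same threshold, 10.7% fell, and 30.1% passed in either direction. No factor fell past the threshold, nor did any have an unadjusted p below 0.05 in that direction (0 in edgeR and 0 in DESeq2's Wald test). The median log2 fold change of the 9 factors was 1.63, against 0.04 over all genes tested. In 7 of the 9 the groups did not overlap with the AE9a-Ddit4-/- libraries higher, which held for 27.9% of all genes tested (22.2% with these libraries lower, 50.1% in either direction).

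**Figure D1:**
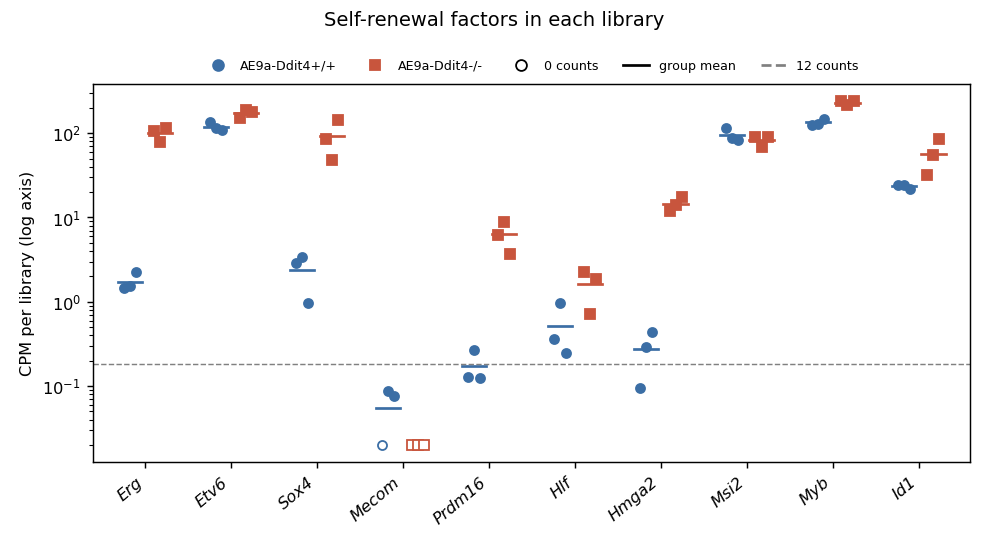
CPM of the 10 self-renewal factors in each library, on a log axis; circles are AE9a-Ddit4+/+ and squares AE9a-Ddit4-/- libraries, short lines are group means, open symbols at the bottom stand for 0 counts and the dashed line marks 12 counts. Erg, Sox4, Prdm16 and Hmga2 lie far apart between the groups, while Etv6, Msi2 and Myb lie between 68.3 and 239 CPM in all libraries.

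The increases fell into 2 sizes. Erg, Hmga2, Sox4 and Prdm16 had log2 fold changes above 5, a size that 5.59% of all genes tested exceeded past the threshold, and the other 5 factors tested were below 2. The 4 large ones started from low levels, at mean values of 0.172 to 2.41 CPM in AE9a-Ddit4+/+ cells. Etv6, Msi2 and Myb, at 95.2 to 134 CPM in AE9a-Ddit4+/+ cells, moved by less than 1 on the log2 scale. Id1, at 23.3 CPM, and Hlf, at 0.523 CPM, lay between these sizes in their change.

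**Figure D2:**
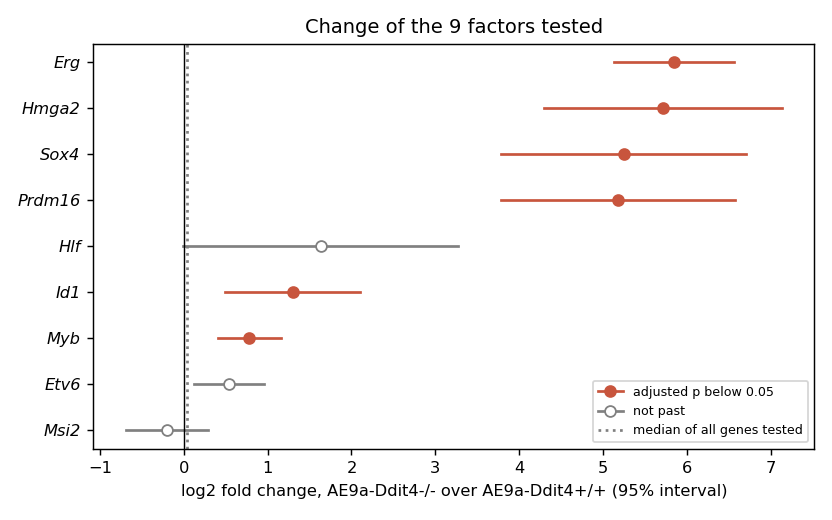
log2 fold change (AE9a-Ddit4-/- over AE9a-Ddit4+/+) of the 9 factors tested, with 95% intervals from the edgeR fit; filled points passed an adjusted p of 0.05 and the dotted line is the median of all genes tested. The lower ends of the intervals of Erg, Hmga2, Sox4 and Prdm16 are at 5.13, 4.29, 3.78 and 3.78.

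Among the ETS factors, Erg had the change with the narrowest interval of the 4 large ones. Erg (ENSMUSG00000040732, protein coding, chromosome 16, 95359169 to 95586593, minus strand, GRCm38) had 1.44, 1.53 and 2.23 CPM with Ddit4 intact and 106, 78.4 and 115 CPM with Ddit4 knocked out. Each knockout library was thus above each wild-type library, and replicates of a group stayed within 1.55 times of each other. The mean went from 1.73 ± 0.43 to 99.7 ± 18.97 CPM (SD, n = 3 each), a 57.5-fold increase (95% interval 35.1 to 94.2, log2 fold change 5.84, SE 0.31, edgeR adjusted p = 0.000129). By p-value it ranked 16 of the 18375 genes tested, and by size of increase 787. Erg lies on chromosome 16, where the 261 genes averaging over 4 on the log2 CPM scale lay, by their median log2 fold change, 0.42 above all such genes, and the part of this shift in the change of Erg was not tested.

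Erg is also made by endothelial cells and megakaryocytes, and markers of both were higher in the AE9a-Ddit4-/- libraries. The summed CPM of 12 endothelial markers was 18.3 to 58.9 in AE9a-Ddit4+/+ and 434 to 512 in AE9a-Ddit4-/- libraries (exact permutation p = 0.1), with 8 of the 12 past the threshold as higher and 1 as lower. The 12 markers spread widely in AE9a-Ddit4-/- libraries. Tie1, at 159 to 213 CPM, and Pecam1, at 123 to 144 CPM, lay above the 78.4 to 115 CPM of Erg in every such library, and Egfl7 had 63.1 to 79.5 CPM, Tek 21.0 to 31.5, Esam 19.4 to 27.1, Kdr 9.14 to 21.5, Cdh5 4.47 to 9.68 and Sox18 1.86 to 3.25 CPM, all 8 having risen. Plvap fell to 3.68 to 9.35 CPM, and Sox7, Emcn and Sox17 reached at most 1.75, 0.527 and 0.321 CPM and were not tested. The summed CPM of 13 megakaryocyte markers was 143 to 227 in AE9a-Ddit4+/+ and 2421 to 3348 in AE9a-Ddit4-/- libraries. Most of this sum was Itga2b alone, at 88.0 to 146 and 1788 to 2330 CPM. Of the 13 markers, 9 were higher and 1, Vwf, was lower (log2 fold change -2.06, edgeR adjusted p = 0.0327). Gp1ba and Gp5 did not pass the threshold. Gp6 was not tested and was the only one below 1 CPM on average in AE9a-Ddit4-/- cells. The part of either marker group in the level of Erg was not tested.

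Etv6 encodes an ETS repressor that is lost or fused in several leukemias. Etv6 (ENSMUSG00000030199, chromosome 6, 134035700 to 134270158, plus strand) had 135, 115 and 110 CPM in AE9a-Ddit4+/+ and 153, 190 and 178 CPM in AE9a-Ddit4-/- libraries. The groups did not overlap, yet the difference missed the threshold, at 1.45-fold (95% interval 1.09 to 1.93) with an edgeR adjusted p of 0.0572. It came past the threshold with DESeq2's Wald test (adjusted p = 0.0293), with counts divided by 4 and when genes under 10 counts in any library were left out. An antisense gene inside Etv6, Gm17089, shares 135 exon bases with it and reached at most 5 counts with Ddit4 intact and 28 to 81 counts without, against 7082 counts or more for Etv6.

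Of 24 other ETS genes, 19 were tested, of which 7 rose and none fell (median log2 fold change 0.27). The 7 were 36.8% of those tested, against 19.4% of all genes tested that rose. Spic and Spib, relatives of Spi1 that act in macrophages and lymphocytes, rose by 4.94 and 3.51 on the log2 scale (SE 0.79 and 0.59, edgeR adjusted p = 0.00407 and 0.00468). Ets2, Etv2, Elk3, Elf1 and Elf2 made up the other 5, and each of these lost its call in at least 1 fit that left out a single library (adjusted p 0.0503 to 0.119 in those fits). Ets2 lies on chromosome 16 like Erg, and the part of the shift of that chromosome in its change was not tested. Spi1, the ETS factor of myeloid cells, had 144, 192 and 172 CPM in AE9a-Ddit4+/+ and 110, 86.6 and 148 CPM in AE9a-Ddit4-/- libraries, and did not pass (adjusted p = 0.116). Fli1, the closest relative of Erg, did not pass either, at 33.0 to 70.2 and 37.6 to 60.1 CPM, and its 95% interval of log2 fold change was -0.69 to 0.81.

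Set per kb of merged exon, the level of Erg moved from rank 16 to rank 5 among the 26 ETS genes. Its share of the summed ETS level was 0.203% ± 0.063 in AE9a-Ddit4+/+ and 8.68% ± 1.75 in AE9a-Ddit4-/- cells (SD, n = 3 each). The share of Etv6 was 8.04% ± 0.76 and 8.81% ± 1.49, and it ranked 4 in both groups. Spi1 held rank 1 with 25.2% ± 3.6 in AE9a-Ddit4+/+ cells and rank 2 with 12.9% ± 4.0 in AE9a-Ddit4-/- cells, where Elf1 held 18.3% ± 1.8.

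**Figure D3:**
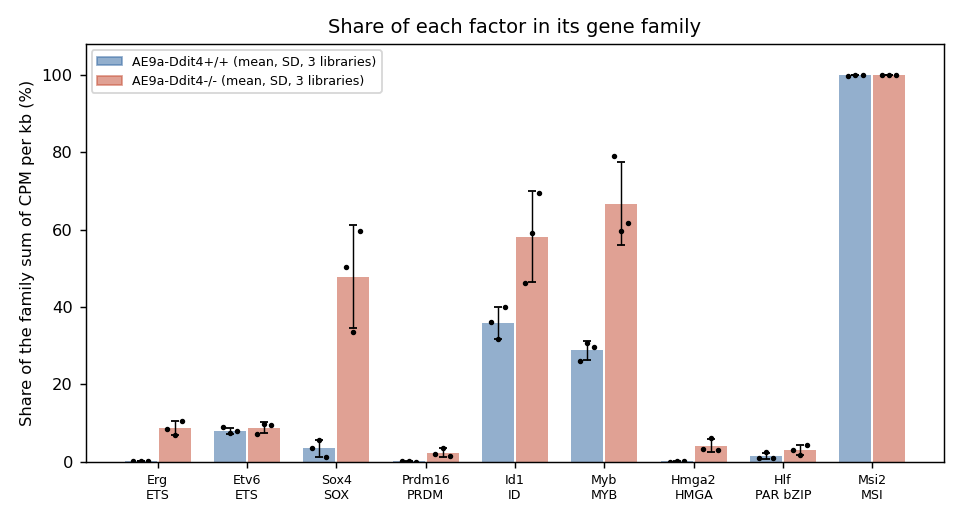
Share of each factor in the summed CPM per kb of merged exon of its gene family, in percent; bars are means, error bars SD and points the 3 libraries of a group. Sox4 took 3.51% of the SOX sum in AE9a-Ddit4+/+ and 47.8% in AE9a-Ddit4-/- cells, and Msi2 nearly all of the MSI sum in both.

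Sox4 encodes an HMG-box factor that is needed for early B cells and is switched on in several leukemias. Sox4 (ENSMUSG00000076431, a gene with a single exon on chromosome 13, 28948919 to 28953713, minus strand) had 2.87, 3.42 and 0.959 CPM in AE9a-Ddit4+/+ and 85.2, 47.8 and 142 CPM in AE9a-Ddit4-/- libraries. The groups were far apart, but the spread within each was wide, at 3.56 times between the lowest and highest AE9a-Ddit4+/+ library and 2.97 times in AE9a-Ddit4-/-. The increase was 37.9-fold (95% interval 13.8 to 105, log2 fold change 5.24, SE 0.63, edgeR adjusted p = 0.00139). An RNA gene on the plus strand, Gm26735, shares 2616 of the 4795 exon bases of Sox4 in the annotation and has no row in the count table, so that reads from it could have been counted as Sox4 if strand was not used. Markers of B cells moved with Sox4, since the summed CPM of 10 such genes was 1.15 to 5.73 in AE9a-Ddit4+/+ and 75.1 to 153 in AE9a-Ddit4-/- libraries, with 8 of 10 higher past the threshold. In both Sox4 and the summed B cell markers the second AE9a-Ddit4-/- library was lowest and the third highest. This order was not particular to B cells. The summed T and NK cell markers (137, 124 and 168 CPM), neutrophil markers (3910, 1940 and 5410) and monocyte markers (432, 283 and 753) shared it. Vpreb1 and Igll1, which define B cell precursors, stayed below 1 CPM on average in AE9a-Ddit4-/- cells, and the part of B cells in the level of Sox4 was not tested.

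Of 18 other SOX genes, only 8 were tested, of which 3 rose and 2 fell. That was 37.5% and 25%, against 19.4% and 10.7% of all genes tested. Sox13 rose from 1.08, 1.61 and 1.10 CPM to 40.1, 33.6 and 44.7 CPM (log2 fold change 4.97, SE 0.31, edgeR adjusted p = 0.000177). Sox10 and Sox18 were at or under the limit of detection in AE9a-Ddit4+/+ libraries and rose at least 5.91-fold and at least 13.04-fold against it. Sox14 went the other way, from 9.99, 10.4 and 14.6 CPM to 0 counts in each AE9a-Ddit4-/- library, at least 63.2-fold lower. Sox6, a factor of red cell maturation, fell by 1.30 on the log2 scale (edgeR adjusted p = 0.0277), a call that was lost in 4 of the 6 fits without a single library (adjusted p up to 0.0866). Sox4 moved from rank 4 to rank 1 per kb among the 19 SOX genes, while Sox6 and Sox14 held the first 2 ranks in AE9a-Ddit4+/+ cells.

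The 2 PR-domain factors differed. Prdm16 (ENSMUSG00000039410, chromosome 4, 154316125 to 154636873, minus strand), which protects stem cells from oxidative stress and silences genes through histone methylation, had 0.127, 0.265 and 0.124 CPM in AE9a-Ddit4+/+ and 6.28, 8.95 and 3.70 CPM in AE9a-Ddit4-/- libraries. In counts these were 8, 18 and 8 against 391, 544 and 272, so that 2 of the 3 AE9a-Ddit4+/+ libraries lay under the limit of 12 counts and the groups were clearly apart. The increase was 36.2-fold (95% interval 13.8 to 95.3, log2 fold change 5.18, SE 0.60, edgeR adjusted p = 0.00121). Mecom (ENSMUSG00000027684, chromosome 3, 29951296 to 30548008, minus strand), the close relative of Prdm16 and a gene of long-term stem cells, had 0, 6 and 5 counts in AE9a-Ddit4+/+ and 0, 0 and 0 counts in AE9a-Ddit4-/- libraries. All 6 values were under the limit of detection, so no fold is given, and Mecom RNA was not detectable at this depth in either group.

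Of 13 other PRDM genes, 8 were tested, of which 2 rose and none fell. The 2 were 25% of those tested, near the 19.4% of all genes tested that rose. Prdm11 rose from 1.16, 1.80 and 0.836 CPM to 33.9, 39.4 and 27.2 CPM (log2 fold change 4.73, SE 0.39, edgeR adjusted p = 0.000429). Prdm15 rose by 1.499 on the log2 scale (adjusted p = 0.0389), and this call was lost in 4 of the 6 fits without a single library (adjusted p 0.0795 to 0.116). Prdm15 also lies on chromosome 16, with the median shift of 0.42 given for Erg. The part of this shift in the change of Prdm15 was not tested. Per kb, Prdm16 ranked 9 of the 15 PRDM genes in AE9a-Ddit4+/+ and 8 in AE9a-Ddit4-/- cells, with 0.0827% ± 0.0350 and 2.36% ± 1.14 of their sum, and Prdm4 ranked 1 in both. Of 7 corepressors that PRDM factors use, Ctbp1, which binds Mecom and Prdm16 directly, fell from 279, 243 and 281 to 122, 143 and 136 CPM (log2 fold change -0.999, SE 0.17, adjusted p = 0.00459). Ehmt2, a histone H3 methyltransferase, rose by 0.98 on the log2 scale (adjusted p = 0.0185), though not without AE9a-Ddit4+/+ library 1 or library 3 (adjusted p up to 0.0694), and the other 5 did not pass.

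Hlf encodes a PAR-type bZIP factor that marks resting stem cells. Hlf (ENSMUSG00000003949, chromosome 11, 90336536 to 90390895, minus strand) had 0.364, 0.958 and 0.248 CPM in AE9a-Ddit4+/+ and 2.28, 0.724 and 1.88 CPM in AE9a-Ddit4-/- libraries. The groups overlapped, because the second AE9a-Ddit4-/- library was below the second AE9a-Ddit4+/+ library. The difference did not pass (3.10-fold, 95% interval 0.996 to 9.65, edgeR adjusted p = 0.119), and without AE9a-Ddit4+/+ library 2 it passed with a log2 fold change of 2.40 (adjusted p = 0.0427). Of its relatives, Dbp rose by 2.33 on the log2 scale (SE 0.55, adjusted p = 0.0168) and lost the call in 3 of the fits without a single library (adjusted p up to 0.0610), while Tef and Nfil3 did not pass. Hlf took 1.47% ± 0.88 and 3.05% ± 1.32 of the summed level of Hlf, Dbp and Tef per kb, and Tef held most of it in both groups.

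Hmga2 and the genes around let-7 held the widest contrast. Hmga2 (ENSMUSG00000056758, chromosome 10, 120361275 to 120476469, minus strand) had 0.095, 0.295 and 0.433 CPM in AE9a-Ddit4+/+ and 11.8, 14.01 and 17.7 CPM in AE9a-Ddit4-/- libraries. In counts this was 6, 20 and 28 against 736, 851 and 1299, with each AE9a-Ddit4-/- library far above each AE9a-Ddit4+/+ library. The increase was 52.4-fold (95% interval 19.6 to 140, log2 fold change 5.71, SE 0.61, edgeR adjusted p = 0.000928). An antisense gene, 1700006J14Rik, overlaps the end of Hmga2 on the plus strand, shares 140 exon bases with it and fell from 5743, 5358 and 6777 counts to 1062, 1637 and 2056 counts (log2 fold change -1.93, SE 0.25, adjusted p = 0.00190). Whether counting used strand is not given in the sources used here, so that reads of the shared bases could be assigned to either gene.

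Lin28b blocks the maturation of let-7 and, like Hmga2, is itself repressed by it. It had 0 counts in each AE9a-Ddit4+/+ library and 23.5, 45.6 and 98.2 CPM after Ddit4 loss, at least 303-fold higher against the limit of detection (edgeR adjusted p = 0.00115). Over these 3 libraries the levels of Hmga2 and Lin28b had the same order, lowest in library 1 and highest in library 3. This order was not particular to let-7 targets, since Id1, with 0 seed matches, shared it (32.1, 55.3 and 84.5 CPM). Arid3a, a fetal-type lymphoid factor also held down by let-7, rose from 22.4, 37.1 and 13.7 to 93.4, 90.9 and 72.0 CPM (log2 fold change 1.81, SE 0.36, adjusted p = 0.00925). With 2 seed matches, Arid3a thus ran in the opposite order over the knockout libraries. The part of let-7 in these levels was not tested. The remaining genes of this list did not pass or were not tested. Lin28a had 2.97 to 5.67 CPM and 1.79 to 6.89 CPM (adjusted p = 0.976), Hmga1 58.9 to 95.1 CPM and 68.2 to 170 CPM (adjusted p = 0.191), and Igf2bp1, which carries 4 seed matches as well, had at most 0.0619 CPM in any library. Per kb, Hmga2 took 0.131% ± 0.090 and 4.14% ± 1.66 of the HMGA sum, the rest being Hmga1.

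**Figure D4:**
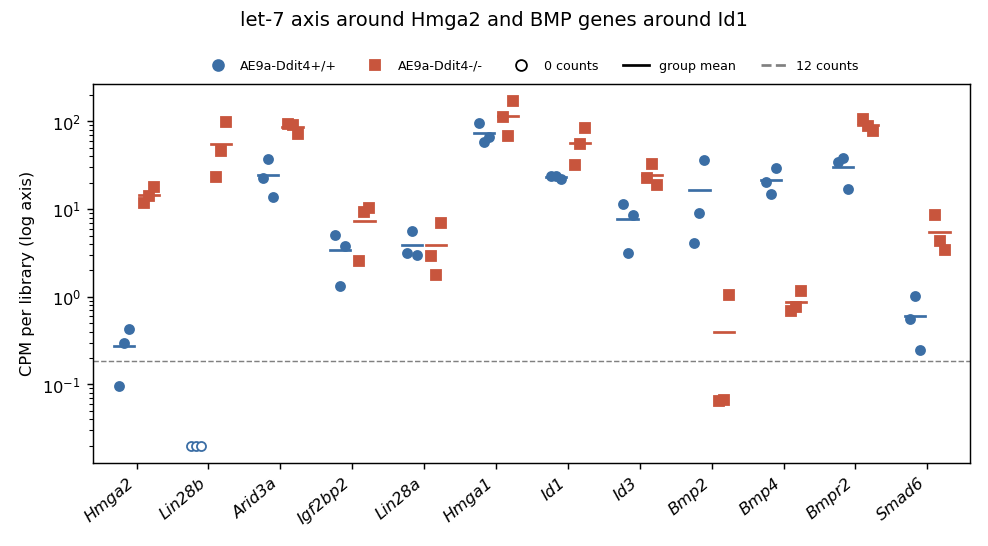
CPM in each library, on a log axis, of genes around let-7 (Hmga2 to Hmga1) and of ID and BMP genes (Id1 to Smad6), with symbols as in the plot of the 10 factors. Lin28b is at 0 counts in AE9a-Ddit4+/+ and at 23.5 to 98.2 CPM in AE9a-Ddit4-/- libraries, and Bmp2 and Bmp4 lie lower in each AE9a-Ddit4-/- library.

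Msi2 encodes an RNA-binding protein that keeps stem and leukemia cells immature. Msi2 (ENSMUSG00000069769, chromosome 11, 88339382 to 88718513, minus strand) had 115, 86.9 and 84.0 CPM in AE9a-Ddit4+/+ and 89.3, 68.3 and 91.3 CPM in AE9a-Ddit4-/- libraries. The groups overlapped, and the difference was 0.871-fold (95% interval 0.621 to 1.22, edgeR adjusted p = 0.512), an interval that holds no change of 2-fold in either direction. It was the one tested factor with a mean lower in AE9a-Ddit4-/- cells. Its relative Msi1 was at or near 0 in each library. Of 7 genes around Musashi and Numb, Numbl rose from 6.20, 8.31 and 7.58 to 16.5, 14.6 and 14.3 CPM (adjusted p = 0.0246), although not in 5 of the 6 fits without a single library (adjusted p up to 0.0748), and Numb, the RNA that Musashi proteins are best known to bind, did not pass (adjusted p = 0.533).

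Myb encodes the transcription factor that keeps progenitors in cycle. Myb (ENSMUSG00000019982, chromosome 10, 21124935 to 21160984, minus strand) had 127, 130 and 146 CPM in AE9a-Ddit4+/+ and 239, 215 and 238 CPM in AE9a-Ddit4-/- libraries. The rise was small and even over libraries, with replicates within 1.15 times and 1.12 times of each other, at 1.72-fold (95% interval 1.32 to 2.24, log2 fold change 0.78, SE 0.16, edgeR adjusted p = 0.0104). The antisense gene Gm26577 shares 559 exon bases with Myb and had 45 to 71 counts per library, against 8006 counts or more for Myb (adjusted p of Gm26577 0.961). Mybl2, a relative that is high in cells preparing to divide, fell from 185, 151 and 177 to 32.0, 74.3 and 74.9 CPM (log2 fold change -1.4996, SE 0.33, adjusted p = 0.0135). Myb therefore took 28.8% ± 2.4 of the MYB family level per kb in AE9a-Ddit4+/+ and 66.8% ± 10.6 in AE9a-Ddit4-/- cells. Of its coactivators, Ep300 rose by 0.83 on the log2 scale (adjusted p = 0.0178), not in 3 of the 6 fits without a single library (adjusted p up to 0.0653), and Crebbp did not pass (adjusted p = 0.0755).

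Id1 encodes a helix-loop-helix protein that is a direct target of BMP signaling. Id1 (ENSMUSG00000042745, chromosome 2, 152736251 to 152737410, plus strand) had 24.1, 24.0 and 21.9 CPM in AE9a-Ddit4+/+ and 32.1, 55.3 and 84.5 CPM in AE9a-Ddit4-/- libraries. The AE9a-Ddit4+/+ libraries lay within 1.10 times of each other and the AE9a-Ddit4-/- libraries within 2.63 times, all above them. The rise of 2.46-fold (95% interval 1.41 to 4.28, log2 fold change 1.30, SE 0.34, edgeR adjusted p = 0.0266) was the least stable call of the 6. Without AE9a-Ddit4-/- library 3 the log2 fold change was 0.87 (adjusted p = 0.0922), without AE9a-Ddit4-/- library 2 it was 1.29 (0.0695), and without AE9a-Ddit4+/+ library 1, 2 or 3 it was 1.32 (0.0731), 1.32 (0.0503) or 1.25 (0.0866).

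The other ID genes and their E protein partners moved in both directions. Id3 rose from 11.6, 3.17 and 8.50 to 22.7, 32.3 and 18.9 CPM (adjusted p = 0.0359), whereas Id2 had 73.4, 105 and 57.6 CPM in AE9a-Ddit4+/+ and 47.6, 36.5 and 52.0 CPM in AE9a-Ddit4-/- libraries without passing (adjusted p = 0.0610). Id1 thus held 35.9% ± 4.1 of the summed ID level per kb in AE9a-Ddit4+/+, where Id2 ranked 1, and 58.2% ± 11.7 in AE9a-Ddit4-/- cells, where Id1 ranked 1. Of the E proteins that ID proteins bind, Tcf4 rose from 4.18, 6.70 and 1.42 to 68.4, 44.3 and 64.8 CPM (log2 fold change 3.85, SE 0.56, adjusted p = 0.00281). Tcf12 fell by 0.53 on the log2 scale (adjusted p = 0.0425) and Tcf3 did not pass (log2 fold change -0.54, adjusted p = 0.0666). The calls of Id3 and Tcf12 were lost in fits without single libraries (adjusted p 0.0625 to 0.133).

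Of 17 genes of the BMP pathway upstream of Id1, 15 were tested, of which 4 rose and 3 fell. That was 26.7% and 20%, against 19.4% and 10.7% of all genes tested. The ligand Bmp4 fell from 20.6, 14.7 and 29.2 to 0.691, 0.757 and 1.17 CPM (log2 fold change -4.62, SE 0.43, edgeR adjusted p = 0.000558). Bmp2, the other ligand that passed, fell by 5.36 on the log2 scale (SE 1.37, adjusted p = 0.0232), with 4.12, 9.003 and 36.8 CPM in AE9a-Ddit4+/+ libraries. The receptor Bmpr2 rose from 34.3, 38.6 and 17.1 to 107.8, 87.8 and 78.8 CPM (log2 fold change 1.61, SE 0.32, adjusted p = 0.00942), and the co-receptor Eng rose by 0.91 on the log2 scale (adjusted p = 0.0375). Smad6, an inhibitor and itself a BMP target, rose from 0.554, 1.02 and 0.248 to 8.58, 4.31 and 3.44 CPM (log2 fold change 3.16, SE 0.66, adjusted p = 0.0108), and Smurf1, which marks SMAD proteins for breakdown, rose by 1.92 on the log2 scale (adjusted p = 0.0207). Smad9 fell from 1.12, 2.14 and 0.928 CPM to 0 counts, at least 7.57-fold lower, while Smad1, Smad4 and Smad5, which carry or share the same signal, did not pass (Smad1 adjusted p = 0.0507). The calls of Bmp2, Eng and Smurf1 were lost in fits without single libraries (adjusted p 0.0508 to 0.125).

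**Figure D5:**
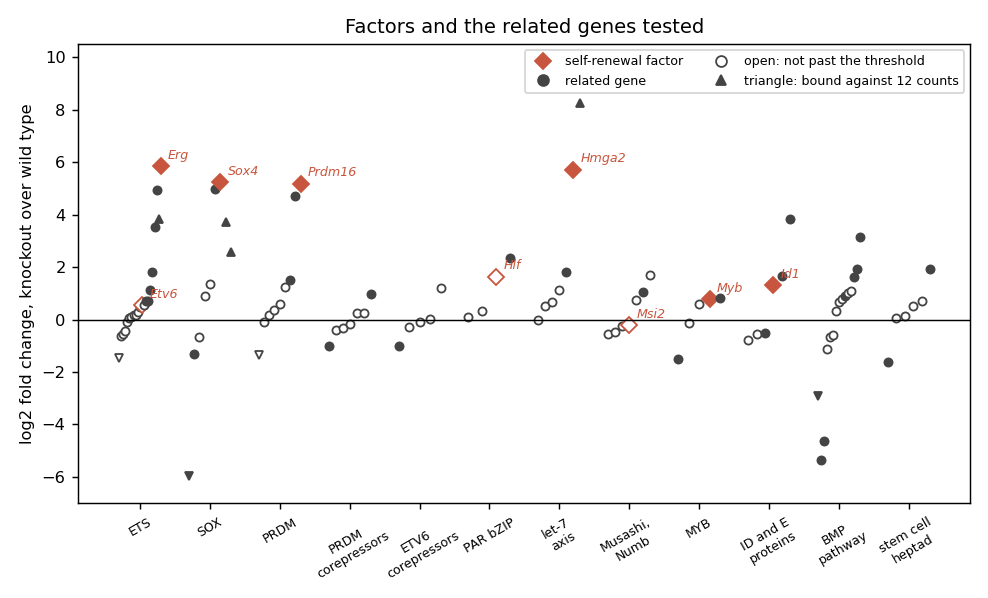
log2 fold change (AE9a-Ddit4-/- over AE9a-Ddit4+/+) of the tested self-renewal factors (diamonds) beside the related genes tested in each list (circles); open symbols did not pass an adjusted p of 0.05, and triangles are bounds against 12 counts. Erg and Prdm16 lie at or near the top of their families, and Lin28b, at a bound of 8.24, lies above Hmga2. Sox10 and Sox18 are drawn at lower bounds of 2.56 and 3.70. Their fitted values of 9.15 and 7.14 exceed the 5.24 of Sox4, so the plot does not rank Sox4 against them.

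Genes that act together with these factors were read from the same fit, in which 19.4% of all genes tested rose and 10.7% fell. Gata2 and Sox18 are among the genes that stand in more than 1 of the lists. Of 6 partners of Erg in the stem cell heptad, a set of factors that bind DNA together, Gata2 rose from 123, 140 and 178 to 579, 613 and 501 CPM (log2 fold change 1.94, SE 0.21, edgeR adjusted p = 0.000869) and Lmo2 fell by 1.62 on the log2 scale (adjusted p = 0.0201). Tal1, Lyl1, Runx1 and Fli1 did not pass, and the call of Lmo2 was lost in 4 of the 6 fits without a single library (adjusted p up to 0.0731). Of 5 factors used together to give progenitors self-renewal, Erg, Sox4, Myb and Rora rose and Hoxa9 fell from 19.99, 20.3 and 17.6 to 0.899, 0.527 and 1.47 CPM (log2 fold change -4.31, SE 0.45, adjusted p = 0.000864). The call of Rora was lost in 3 of the 6 fits without a single library (adjusted p up to 0.0761).

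Of 8 factors used to turn committed blood cells into stem-like cells, 7 were tested, of which 4 rose, 1 fell and 2, among them Hlf, did not pass. Meis1 rose from 0.665, 1.15 and 0.0309 to 29.5, 24.7 and 32.5 CPM and Mycn from 0.412, 0.177 and 0.0619 to 14.2, 12.6 and 31.0 CPM (edgeR adjusted p = 0.00535 and 0.00144). Runx1t1 rose as well, but reads of the AE9a transgene, which contains part of its sequence, could not be separated from reads of the gene. Lmo2 was the one that fell.

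Of 13 genes restricted to or high in blood stem cells, 10 were tested, of which 7 rose and 2 fell, Mllt3 and Tcf15. Fgd5 and Pdzk1ip1 were at least 235-fold and at least 194-fold higher, and Procr rose by 4.31 on the log2 scale (SE 0.73, edgeR adjusted p = 0.00502). Mllt3, which maintains human stem cells in culture, fell from 123, 58.3 and 111 to 3.15, 0.724 and 2.07 CPM (log2 fold change -5.62, SE 0.61, adjusted p = 0.00100). Hoxb5, Nkx2-3 and Ndn had too few counts to be tested. The calls of Slamf1 and Ctnnal1 were lost without single libraries (adjusted p 0.0511 to 0.149). Among 7 surface and nuclear markers of immature cells, 6 rose, with a summed CPM of 274 to 350 in AE9a-Ddit4+/+ and 1810 to 1999 in AE9a-Ddit4-/- libraries.

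Compared per kb of merged exon, the order of the 10 factors also differed between the groups. In AE9a-Ddit4+/+ cells Id1 and Etv6 came first, at 20.1 ± 1.1 and 20.04 ± 2.2 CPM per kb (SD, n = 3), then Myb at 15.01 ± 1.2 and Msi2 at 9.15 ± 1.63. A gap followed to Sox4 and Erg at 0.504 ± 0.269 and 0.5002 ± 0.124, and Hlf, Hmga2, Prdm16 and Mecom were below 0.1. Neighbours whose ranges overlapped were Id1 and Etv6, Sox4 and Erg, Hlf and Hmga2, and Hmga2 and Prdm16. In AE9a-Ddit4-/- cells the order was Id1 (49.4 ± 22.6), Etv6 (29.0 ± 3.2), Erg (28.8 ± 5.5), Myb (25.8 ± 1.6), Sox4 (19.1 ± 9.9), Msi2 (7.97 ± 1.22), Hmga2 (2.14 ± 0.44), Prdm16 (0.677 ± 0.282), Hlf (0.244 ± 0.121) and Mecom at 0. The ranges of neighbours overlapped from Id1 down to Sox4, and did not from Sox4 and Msi2 onward. With the longest transcript in place of merged exons Myb came first in both groups, at 36.3 and 62.4 CPM per kb; its merged exons span 8933 bases and its longest transcript 3693.

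Among the 6 factors that rose, the third AE9a-Ddit4-/- library held the highest value for 4 (Erg, Sox4, Hmga2 and Id1), the second for Prdm16 and the first for Myb. The lowest value lay in the second library for Erg, Sox4 and Myb, in the first for Hmga2 and Id1 and in the third for Prdm16. The factors thus did not share 1 order over the knockout libraries, and Prdm16 ran opposite to Sox4. As a description of likeness, the genes nearest to each factor were taken by the root mean square difference of centred log2(CPM + 0.5) over the 6 libraries. Nearest to Erg were Lax1 (difference 0.174) and Tbx4 (0.202), nearest to Sox4 were Meis1 (0.353) and C1qc (0.382), nearest to Hmga2 were Igsf3 (0.195) and Dusp18 (0.200), and nearest to Prdm16 were Crisp3 (0.127) and Nrbp2 (0.145). Nearest to Id1 were Snx31 and Sycp2l, to Myb Sult6b2 and E130018N17Rik, to Hlf Myo5a and A130071D04Rik, to Etv6 Serpind1 and Gm16364, and to Msi2 Blvra and Gm9514. Several of the last group are genes near the limit of detection. Tbx4, Igsf3, Crisp3 and Nrbp2 were under it in AE9a-Ddit4+/+ cells, with means of 0 to 0.0464 CPM. For such genes the added 0.5 CPM sets the size of the profile.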

How the data were processed

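RNA-seq of 6 libraries of AE9a leukemia cells (3 AE9a-Ddit4+/+, 3 AE9a-Ddit4-/-) was analysed from 1 table of gene counts as deposited by the authors. Groups and replicate numbers came from the sample titles. The methods state paired reads of 150 bp and rRNA depletion with a directional library kit; the labels give an mRNA kit instead. The submitters' processing notes name GRCm38 and mm10, and the aligner, counter and use of strand are not given in the sources used here. Low counts piled up at multiples of 4, so 12 counts (3 fragments of 4) served as limit of detection. Limits cover counting error only. Of 55421 genes, 55240 matched GENCODE M21 (GRCm38), from which positions and exon lengths were taken, and 27 symbols that a spreadsheet had turned into dates were restored.

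Counts were tested in R 4.3.3 with edgeR 4.0.16 (filterByExpr, TMM, glmQLFit with robust estimation, glmQLFTest, genotype as the only term), and p-values were adjusted by Benjamini-Hochberg over 18375 genes. The script was tested on simulated data. Intervals of 95% are log2 fold changes plus or minus the t quantile times the SE. Whole-library measures were compared by exact two-sided permutation tests. Alternatives were other scalings and filters, DESeq2 1.42.0, counts divided by 4, a replicate block and leaving out each library. The members and lists were chosen with earlier results of these data known. Named genes are the 10 factors, Ddit4, partners and list members past the threshold, and the 2 nearest profiles of each tested factor. Some list members are counted but not reported here by name. Sequences came from RefSeq tables (GRCm38.p6) and GENCODE M21 transcripts. Summaries and figures were made in Python 3.11.15 with pandas 2.3.3 and matplotlib 3.10.9.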

Additional observations from a re-analysis of the deposited data

How the results depend on the processing

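Erg, Sox4, Hmga2 and Prdm16 stayed past the threshold in each alternative in which they were tested, with log2 fold changes of 5.68 to 6.06, 4.74 to 5.58, 5.31 to 6.19 and 4.79 to 5.63. The filter on at least 10 counts in every library removed Hmga2 and Prdm16 from the test. No factor changed direction. Between 4 and 7 factors passed as higher and 0 as lower, against 6 and 0 in the report. Leaving out single libraries gave 5 to 6 higher and 0 lower. The number of genes past the threshold was 3840 to 6021 without single libraries, 3915 with the stricter filter, 7097 with DESeq2's Wald test and 2964 with the replicate block, against 5535. Genes past the threshold as lower numbered 1975. Without AE9a-Ddit4+/+ library 1, 2 or 3 they numbered 1168, 2078 or 1089. Without AE9a-Ddit4-/- library 1, 2 or 3 they numbered 1157, 1360 or 1397. The replicate numbers did not pair the samples, since deviations of same-numbered libraries correlated at -0.165, -0.194 and -0.0495 across genes. With the block, Myb (adjusted p = 0.0576) and Id1 (0.0857) no longer passed, and 4 factors remained higher. Without the filter Mecom could be fitted and did not pass (adjusted p = 0.209). Of 50 related genes past the threshold, 29 kept it in each alternative, which were read for them after the data had been seen, 21 lost it in at least 1, and none reversed. The causes were not tested.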

Other observations

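Erythroid markers moved opposite to the stem cell factors, with 11 of 15 lower and none higher in AE9a-Ddit4-/- cells and a summed CPM of 7916 to 16621 against 671 to 1203. Neutrophil markers were lower for 4 of 12 (7517 to 12396 against 1940 to 5410 CPM), and of 10 monocyte markers none passed in edgeR. T and NK cell markers were higher for 10 of 12 (10.9 to 49.3 against 124 to 168 CPM), mast cell markers for 4 of 10 (258 to 291 against 1178 to 1848 CPM) and stromal markers for 4 of 11 (15.9 to 39.2 against 209 to 297 CPM). Most of the stromal sum in each AE9a-Ddit4-/- library was Pdgfrb alone. Col1a1, Col1a2, Col3a1, Lepr, Dcn and Kitl did not pass the threshold, and Lum was not tested. Most of the mast cell sum in these libraries was Cpa3 and Gata2, and Gata2 is also a heptad partner of Erg. Fcer1a, Ms4a2, Hdc and Prss34 did not pass, and Mcpt4 and Tpsb2 were not tested. The part of any of these marker groups in the levels of the self-renewal factors was not tested.

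Levels of Prdm16 and Hmga2 in AE9a-Ddit4+/+ cells rest on 6 to 28 counts a library. Genotype, sex of the cells and the history of each leukemia cannot be told apart in this design.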
